A study of Mus musculus with 25 samples.

Results

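Fatty acid synthesis and elongation is described here by 10 mouse genes chosen by name: Acly, Acaca, Acacb, Fasn, Elovl6, Elovl5, Elovl3, Scd1, Srebf1 and Thrsp. All 10 were found in the table of 37117 genes, and all 10 were among the 12970 genes with enough counts to be tested. RNA was read at the 3′ ends of transcripts in 25 libraries of hepatocytes, each made from 500000 sorted cells of collagenase-perfused liver. ApoYap mice (ApoE-rtTA, TRE-hYAP) carry a human YAP transgene that doxycycline switches on through an rtTA gene under an ApoE promoter. They were sampled after 1 week of doxycycline at 0.2 mg/ml in water with 2.5% sucrose (ApoYap Dox, n = 3) and untreated (ApoYap ctrl, n = 4). Mice homozygous for floxed Lats1 and Lats2 were sampled 1 week after a tail vein injection of an AAV8 virus with Cre under the hepatocyte TBG promoter (Lats1/2 KO, n = 3) and without the virus (Lats1/2 flox ctrl, n = 4). C57BL/6 mice, written BL/6 here, received the same doxycycline water (BL/6 Dox, n = 4) or the same virus, sampled after 24 hours (BL/6 AAV-Cre, n = 3), or nothing (BL/6 ctrl, n = 4). Age is not given in the sources used here. Nothing in the labels ties a replicate to an animal of its own, and p-values therefore measure only the spread between these libraries.

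Hepatocytes turn citrate into fatty acids in a fixed sequence of steps. ATP citrate lyase (Acly) makes cytosolic acetyl-CoA, the acetyl-CoA carboxylases (Acaca in the cytosol, Acacb at the mitochondrion) make malonyl-CoA, and fatty acid synthase (Fasn) joins these units into palmitate. ELOVL enzymes lengthen the chain and stearoyl-CoA desaturase (Scd1) puts in the first double bond. Srebf1, which encodes a transcription factor active after feeding and insulin, and Thrsp, a small protein that promotes lipogenesis, act on the pathway as regulators. YAP is a transcriptional coactivator that the kinases LATS1 and LATS2 hold back, so both mouse models bear on active YAP in hepatocytes.

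The libraries held 8107539 to 16515330 counts, and 1 count was worth 0.0361 to 0.141 CPM (counts per 1000000 counts) after TMM scaling, the scale of every level below. Lats1 was at 2.97 to 5.10 CPM in Lats1/2 KO libraries and 12.3 to 14.9 in Lats1/2 flox ctrl libraries, whereas Lats2 was at 7.70 to 17.8 CPM in Lats1/2 KO and 12.9 to 13.7 in Lats1/2 flox ctrl. The sources used here do not place the deleted exons relative to the counted 3′ ends, and the Lats2 count is no check of the deletion. Ccn2, a YAP target gene, was at 161 to 182 CPM in ApoYap Dox and 1.2 to 2.6 in ApoYap ctrl, and at 62.5 to 149 CPM in Lats1/2 KO and 1.19 to 1.32 in Lats1/2 flox ctrl. All 13 measured hepatocyte markers were detected in every group, but their summed level was 34600 to 49760 CPM in ApoYap Dox against 98470 to 121700 in ApoYap ctrl, and 63080 to 71690 CPM in Lats1/2 KO against 101700 to 117900 in Lats1/2 flox ctrl. The 14 macrophage markers summed to 6661 to 10570 CPM in ApoYap Dox against 89.3 to 203.5 in ApoYap ctrl, and to 676.6 to 1660 CPM in Lats1/2 KO against 91.1 to 267.8 in Lats1/2 flox ctrl. Endothelial markers were called higher (adjusted p under 0.05 by the edgeR test named below) for 12 of 12 genes in both models. Neutrophil markers were called higher for 4 of 4 tested in ApoYap Dox and 2 of 4 in Lats1/2 KO. Stellate and fibroblast markers were called higher for 6 of 12 in ApoYap Dox and 11 of 12 in Lats1/2 KO. Over all tested genes, 35.0% were called higher in ApoYap Dox and 20.6% in Lats1/2 KO. Of 2 tested cholangiocyte markers, 1 was called lower in ApoYap Dox and 1 higher in Lats1/2 KO. Of the 7 adipocyte markers, which mark another lipogenic cell type, Adipoq, Lep, Plin1 and Cfd were at 0 counts in every ApoYap Dox and ApoYap ctrl library. The 7 summed to 36.2 to 47.4 CPM in ApoYap Dox, nearly all of it Fabp4, against 4.86 to 7.82 CPM in ApoYap ctrl. Of the 3 tested, 1 was called higher and 1 lower in ApoYap Dox, and likewise in Lats1/2 KO. The 7 summed to 11.4 to 26.4 CPM in Lats1/2 KO, against 3.975 to 7.57 CPM in Lats1/2 flox ctrl. There 2 of the 7 were at 0 counts throughout Lats1/2 KO, and 3 throughout Lats1/2 flox ctrl. These marker levels moved with the groups compared below, and their part in each result was not tested.

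**Figure D1:**
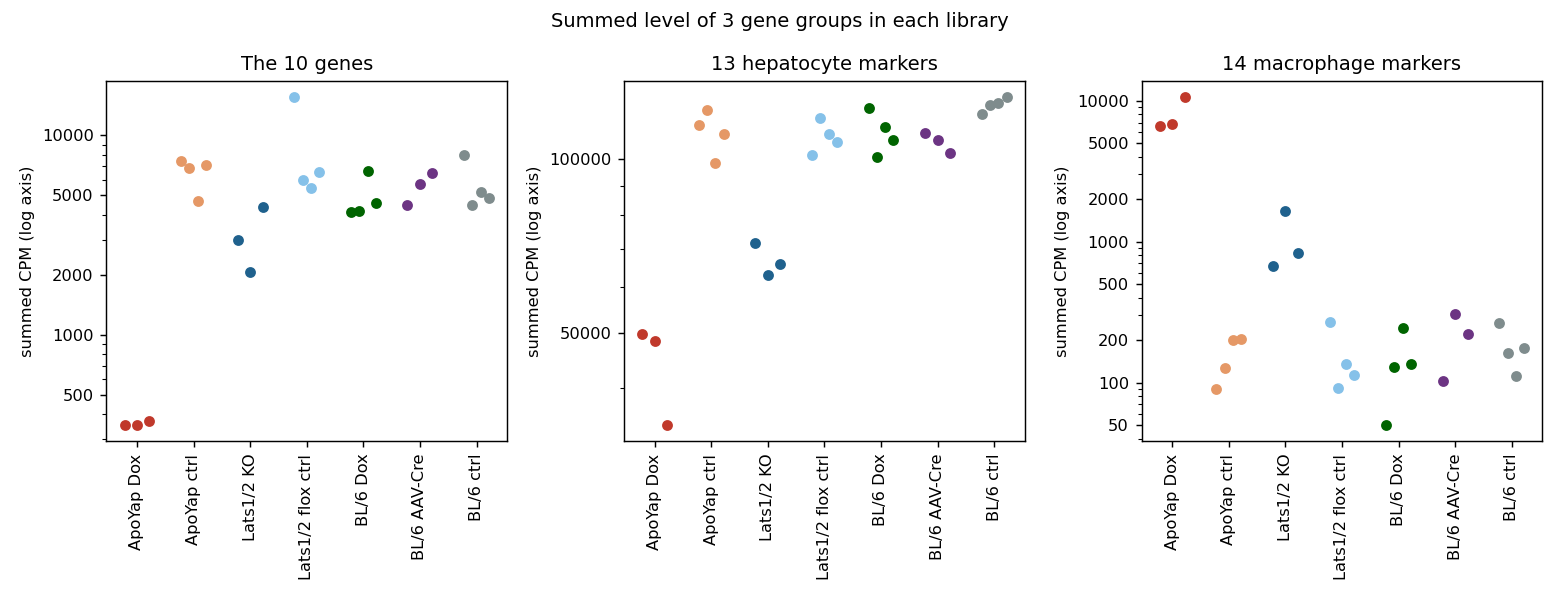
Summed CPM (log axis) of the 10 lipogenic genes, of 13 hepatocyte markers and of 14 macrophage markers, 1 point per library, by group. The 3 ApoYap Dox libraries lie at 353.8 to 367.8 CPM for the 10 genes, below all libraries of the other groups, and at 6661 to 10570 CPM for the macrophage markers, above all of them.

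With YAP induced, all 10 genes were lower, and for all 10 every ApoYap Dox library lay below every ApoYap ctrl library. The share of all tested genes whose libraries separate in this way was not counted, here or in the comparisons below. Across all tested genes 32.0% were called lower and 35.0% higher in this comparison (adjusted p under 0.05, edgeR quasi-likelihood test with Benjamini-Hochberg adjustment). The median log2 fold change of the 10 genes was -3.91, beside 0.07 over all tested genes, and their values ran from -1.11 for Acaca, at percentile 17.2 of all tested genes, to -8.00 for Elovl3, at percentile 0.054. Together the 10 genes gave 353.8, 354.1 and 367.8 CPM in the ApoYap Dox libraries, against 4679 to 7481 CPM in the 4 ApoYap ctrl libraries. In bulk libraries, fewer hepatocytes and less RNA per hepatocyte cannot be told apart.

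Among the genes that supply building blocks, the change was modest. Acly had 72.2, 80.5 and 74.6 CPM in ApoYap Dox, against 257.9, 237.3, 205.3 and 256.4 CPM in ApoYap ctrl. The groups were well apart, at 31.7% of the control level (log2 fold change -1.66 ± 0.28 SE, adjusted p = 1.8e-05). Acaca had 22.4, 19.4 and 18.7 CPM in ApoYap Dox, against 44.7, 44.1, 37.4 and 47.2 CPM in ApoYap ctrl, the smallest change of the 10 (log2 -1.11 ± 0.16, adjusted p = 1.3e-06). The mitochondrial carboxylase behaved otherwise. Acacb had 0.578, 0.679 and 1.16 CPM in ApoYap Dox, from 16, 15 and 24 counts, against 73.5, 80.3, 56.3 and 78.3 CPM in ApoYap ctrl. Acacb was thus at 1.11% of the control level (log2 -6.50 ± 0.56, adjusted p = 3.5e-09), where Acaca was at 46.5%. Fasn had 32.1, 29.2 and 28.2 CPM in ApoYap Dox, against 607.1, 535.4, 445.9 and 634.6 CPM in ApoYap ctrl. Its ApoYap Dox libraries were nearly level with one another, and the fold change was -4.22 ± 0.27 on the log2 scale (adjusted p = 2.9e-12).

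Those of the 10 genes that act in chain elongation and desaturation lost most of their RNA. Elovl6, which lengthens palmitate to stearate, had 19.0, 20.4 and 15.4 CPM in ApoYap Dox, against 143.7, 144.5, 121.7 and 136.2 CPM in ApoYap ctrl (log2 -2.90 ± 0.25, adjusted p = 5.4e-10). Elovl5, which lengthens polyunsaturated fatty acids, had 43.7, 47.1 and 41.5 CPM in ApoYap Dox, against 596.8, 526.1, 348.5 and 657.3 CPM in ApoYap ctrl (log2 -3.59 ± 0.37, adjusted p = 3.0e-08). Both groups of libraries were tight for Elovl6, and for Elovl5 ApoYap ctrl 3 stood below the other controls. Elovl3, which makes saturated and monounsaturated very long chains, had 1.34, 0.272 and 0.772 CPM in ApoYap Dox, from 37, 6 and 16 counts, against 185.8, 320.0, 196.6 and 150.4 CPM in ApoYap ctrl. It was the most reduced of the 10, at 0.389% of the control level (log2 -8.00 ± 0.71, adjusted p = 6.5e-09), and without ApoYap Dox 1 the log2 fold change was -8.66. Scd1 had 128.9, 131.1 and 159.1 CPM in ApoYap Dox, against 4788, 3946, 2657 and 4441 CPM in ApoYap ctrl. That is 3.53% of the control level (log2 -4.82 ± 0.47, adjusted p = 1.2e-08). Scd1 gave 36.4 to 43.3% of the counts of the 10 genes in ApoYap Dox and 56.8 to 64.0% in ApoYap ctrl.

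The regulators split. Thrsp had 3.76, 4.80 and 2.99 CPM in ApoYap Dox, against 739.9, 973.4, 540.7 and 645.1 CPM in ApoYap ctrl, or 0.533% of the control level (log2 -7.55 ± 0.53, adjusted p = 1.4e-10). Srebf1 had 30.0, 20.6 and 25.4 CPM in ApoYap Dox, against 43.7, 53.2, 69.6 and 77.4 CPM in ApoYap ctrl. Its groups were separate but close, with a log2 fold change of -1.26 ± 0.43 (adjusted p = 0.014), and without ApoYap Dox 2 the adjusted p was 0.057. Srebf1 lies on chromosome 11 at 60199089 to 60222581 (GRCm38, GENCODE M21) and overlaps Rai1 on the other strand, and Elovl3, on chromosome 19 at 46131897 to 46135694, overlaps Pitx3 on the other strand. Whether counting used strand is not given in the sources used here, and reads of such neighbours cannot be told apart. Transcripts of Srebf1 from its different starts were counted together, and neither the processing nor the activity of its protein was measured.

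**Figure D2:**
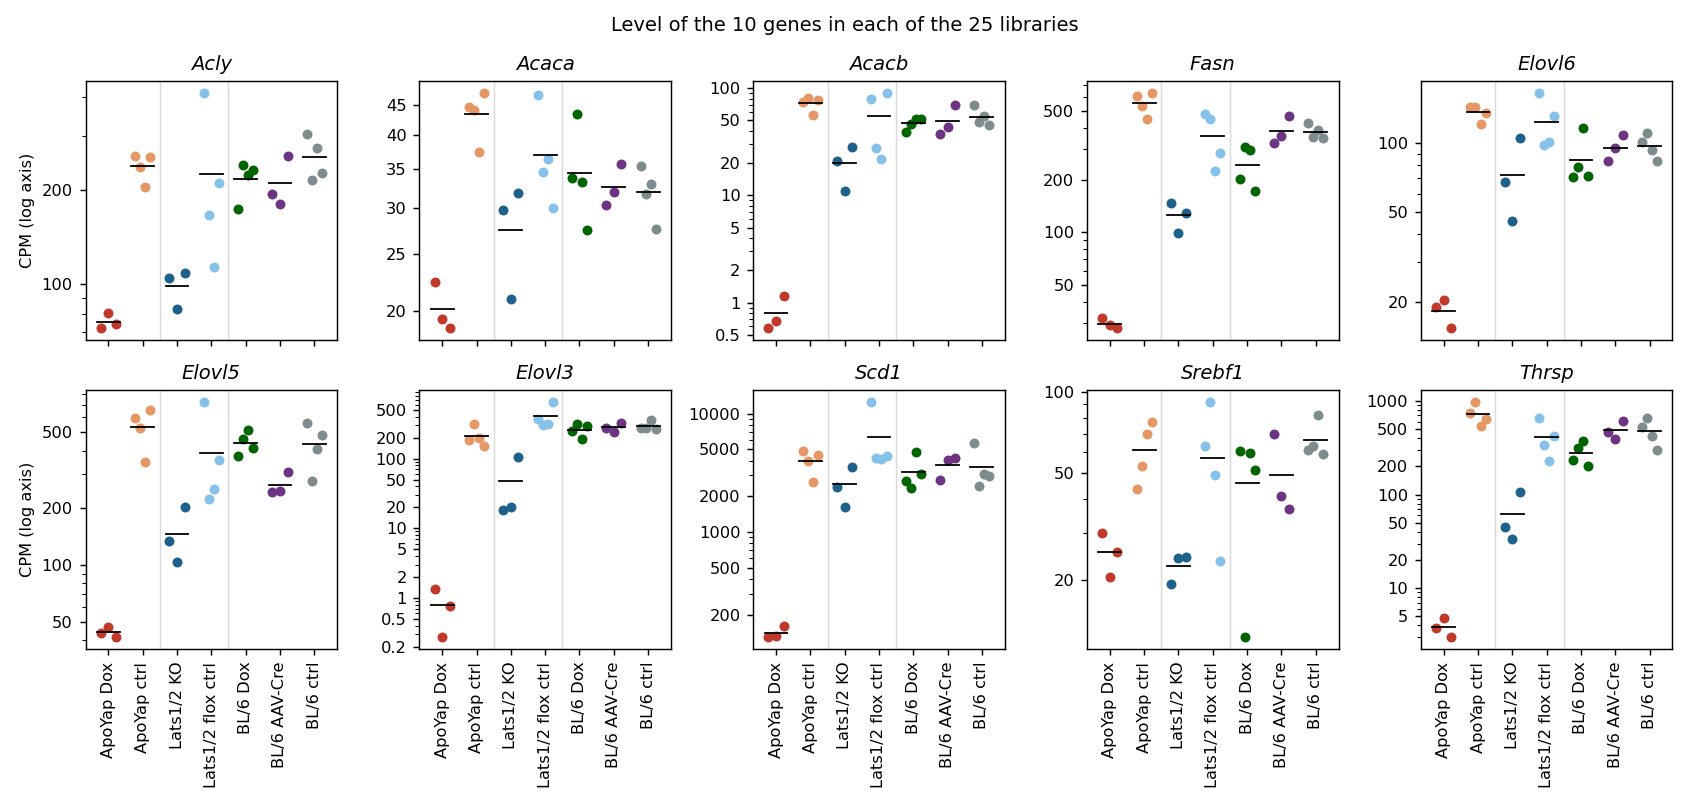
Level of each of the 10 genes (CPM, log axis) in the 25 libraries, by group, with 1 point per library and a bar at the group mean. ApoYap Dox libraries lie below all others for every gene but Acaca and Srebf1, for instance at 28.2 to 32.1 CPM for Fasn, while for Acaca and Srebf1 they overlap Lats1/2 KO, and for Srebf1 also 1 low Lats1/2 flox ctrl library, and BL/6 Dox 2 lies below them.

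Promoter windows of Fasn and Thrsp, reduced to 5.37% and 0.533% of control, are shown beside that of Acly, which kept 31.7%, to let genes with a large and a smaller fall be compared. Each line gives the 250 bases before the RefSeq start (GRCm38.p6), 5′ to 3′ on the gene's strand, with matches to the searched motifs in capitals: CCAAT or its reverse complement ATTGG (bound by NF-Y) and GGGCGG or CCGCCC (bound by Sp1).
Fasn, chr11:120824548-120824797, minus strand: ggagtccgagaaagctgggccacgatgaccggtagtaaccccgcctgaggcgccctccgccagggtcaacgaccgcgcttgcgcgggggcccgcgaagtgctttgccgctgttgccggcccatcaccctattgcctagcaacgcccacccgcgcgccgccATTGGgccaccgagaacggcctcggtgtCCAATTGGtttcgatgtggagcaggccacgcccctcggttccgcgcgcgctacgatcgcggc
Thrsp, chr7:97417551-97417800, minus strand: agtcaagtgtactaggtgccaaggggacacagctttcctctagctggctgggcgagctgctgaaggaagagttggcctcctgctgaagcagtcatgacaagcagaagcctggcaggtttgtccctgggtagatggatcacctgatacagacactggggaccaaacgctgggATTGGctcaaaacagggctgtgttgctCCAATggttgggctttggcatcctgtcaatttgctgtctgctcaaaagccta
Acly, chr11:100528001-100528250, minus strand: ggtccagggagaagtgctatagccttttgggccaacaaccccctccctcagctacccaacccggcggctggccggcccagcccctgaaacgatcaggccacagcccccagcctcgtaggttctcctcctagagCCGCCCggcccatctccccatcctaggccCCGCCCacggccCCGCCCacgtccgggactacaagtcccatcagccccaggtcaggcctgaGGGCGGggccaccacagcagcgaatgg
Fasn held 3 matches to the NF-Y letters, of which 2 overlap each other, and Thrsp held 2. Acly held none of these and 4 matches to the Sp1 letters. Of the other genes searched, Acacb (log2 fold change -6.50) held 1 match to the NF-Y letters and Elovl5 (-3.59) held 2. Srebf1 (-1.26) held the NF-Y letters in 2 of its 3 windows, and Elovl6 (-2.90) and Acaca (-1.11) held none. Any link between these letters and the size of the fall was not tested. Over all 32851 windows of this length, 33.8% held the NF-Y letters and 32.7% the Sp1 letters, so neither is rare. Windows of 8 of the 10 genes, all but Scd1 and Elovl3, were searched, 10 in all since Srebf1 has 3 starts. CACGTG (an E-box), present in 6.02% of all windows, was found in that of Elovl5 only. TCACNCCAC (a sterol regulatory element), present in 1.05%, and GGAATG (bound by TEAD factors, the DNA-binding partners of YAP), present in 12.6%, were found in none of the 10. Shares this low leave few matches to be found in 10 windows. Only these exact letters in these windows were searched, so variant or more distant sites are not addressed. The RefSeq starts of Acaca and Acacb lie 65766 and 18983 bases inside the GENCODE gene, so for these genes other starts were not searched. The RefSeq start of Thrsp lies 180 bases inside the GENCODE gene, and that of Elovl6 31 bases inside. Both NF-Y matches of Thrsp, at -79 to -75 and -52 to -48, therefore lie within the GENCODE gene and not before it.

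In the Lats1/2 KO libraries the same 10 genes were lower than in Lats1/2 flox ctrl. All 10 were called lower, beside 17.4% of all tested genes called lower and 20.6% called higher, and the median log2 fold change was -1.37 against -0.03 over all tested genes. Lats1/2 KO and Lats1/2 flox ctrl libraries did not overlap for 6 genes, Fasn, Acly, Scd1, Elovl3, Elovl5 and Thrsp, and overlapped for Acaca, Acacb, Elovl6 and Srebf1. Without the share over all tested genes, this count does not tell whether the 10 stand out. With only these 2 groups in the fit, the genes tested changed to 11613 and the scaling changed too. Of all genes tested 3543 were then called, 2143 of them higher, and 3 of the 10 passed (Fasn, Elovl3 and Thrsp). The log2 fold changes of the other 7 then ran from -0.36 for Acaca to -1.41 for Acacb, with adjusted p from 0.053 to 0.17. Acaca did not pass with DESeq2 either (adjusted p = 0.10), nor with RLE scaling (0.084), and Acacb did not with voom (0.061). Without Lats1/2 KO 2, which was the lowest of its group for 8 of the 10 genes, 5 passed. Of 13263 genes tested without it, 3317 were called, 1955 of them higher. That library was also the highest of its group for macrophage markers (1660 CPM, against 676.6 and 825 in the other 2), endothelial markers (834.6, against 355.9 and 390.6) and stellate and fibroblast markers (643.5, against 291.4 and 214.1), and the part of these in the result was not tested.

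Elovl3 had 18.3, 20.3 and 105.4 CPM in Lats1/2 KO, against 370.7, 303.7, 314.9 and 653.3 CPM in Lats1/2 flox ctrl (log2 -3.09 ± 0.52, adjusted p = 0.00013). Lats1/2 KO 3 was several times above the other 2, and without it the log2 fold change was -4.41. Thrsp had 45.2, 33.2 and 106.0 CPM in Lats1/2 KO, against 658.1, 340.2, 225.7 and 420.7 CPM in Lats1/2 flox ctrl (log2 -2.74 ± 0.41, adjusted p = 3.4e-05), and -3.39 without Lats1/2 KO 3. These were the 2 genes with the lowest fold changes in both models. Fasn had 148.2, 99.1 and 128.5 CPM in Lats1/2 KO, against 481.1, 447.8, 224.4 and 286.7 CPM in Lats1/2 flox ctrl (log2 -1.52 ± 0.23, adjusted p = 2.3e-05).

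Scd1 had 2400, 1614 and 3544 CPM in Lats1/2 KO, against 12520, 4247, 4137 and 4344 CPM in Lats1/2 flox ctrl. Lats1/2 flox ctrl 1 stood far above the other 3 controls, and the groups did not overlap (log2 -1.33 ± 0.39, adjusted p = 0.011). Without that library the log2 fold change was -0.75, and the call was lost without it or without Lats1/2 KO 2 (highest adjusted p = 0.081). Acly had 104.3, 82.9 and 108.3 CPM in Lats1/2 KO, against 412.4, 166.5, 113.4 and 210.8 CPM in Lats1/2 flox ctrl (log2 -1.20 ± 0.27, adjusted p = 0.0016). Elovl5 had 134.3, 103.1 and 201.7 CPM in Lats1/2 KO, against 724.0, 223.7, 251.3 and 356.5 CPM in Lats1/2 flox ctrl (log2 -1.41 ± 0.34, adjusted p = 0.0023). For both, the groups came close to each other at their nearest libraries, and Lats1/2 flox ctrl 1 was again the highest, as for 7 of the 10 genes. Without that library the log2 fold change was -0.73 for Acly and -0.92 for Elovl5, and both calls held.

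Of the 4 genes whose libraries overlapped, Srebf1 had 19.4, 24.2 and 24.4 CPM in Lats1/2 KO, against 63.2, 91.8, 49.3 and 23.6 CPM in Lats1/2 flox ctrl (log2 -1.33 ± 0.44, adjusted p = 0.021). Its call was lost without Lats1/2 flox ctrl 2, Lats1/2 KO 1 or Lats1/2 KO 2 (highest adjusted p = 0.082). Acacb had 20.8, 11.0 and 28.0 CPM in Lats1/2 KO, against 79.4, 27.9, 21.9 and 90.5 CPM in Lats1/2 flox ctrl (log2 -1.46 ± 0.41, adjusted p = 0.0076). The 4 controls fell into a high and a low pair, and without Lats1/2 KO 2 the adjusted p was 0.060. Elovl6 had 67.2, 45.4 and 105.7 CPM in Lats1/2 KO, against 166.6, 97.9, 101.7 and 131.9 CPM in Lats1/2 flox ctrl (log2 -0.77 ± 0.23, adjusted p = 0.0089, and 0.082 without Lats1/2 KO 2). Acaca had 29.8, 20.9 and 31.8 CPM in Lats1/2 KO, against 46.9, 34.5, 36.3 and 30.0 CPM in Lats1/2 flox ctrl. This was the smallest change of the 10 in both models (log2 -0.42 ± 0.16, adjusted p = 0.037), and the call was lost without Lats1/2 flox ctrl 1, Lats1/2 flox ctrl 3 or Lats1/2 KO 2 (highest adjusted p = 0.27).

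**Figure D3:**
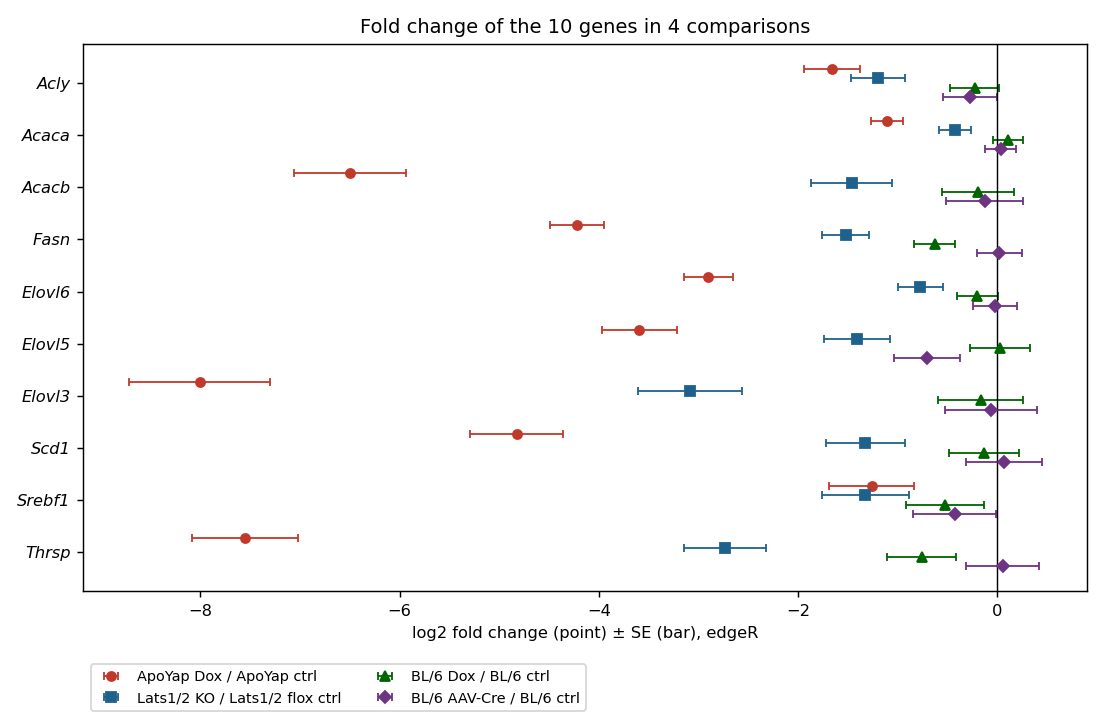
Log2 fold change of each gene (points, with SE bars) for ApoYap Dox over ApoYap ctrl, Lats1/2 KO over Lats1/2 flox ctrl, and BL/6 Dox and BL/6 AAV-Cre over BL/6 ctrl. ApoYap Dox points run from -8.00 for Elovl3 to -1.11 for Acaca, and only for Srebf1 is the Lats1/2 KO point, at -1.33, below the ApoYap Dox point, at -1.26.

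The difference between the 2 models was tested as the Lats1/2 knockout log2 fold change less the Yap induction one, so that a positive value means a smaller fall in the knockout. It was positive and past the threshold for 8 of the 10 genes, beside 17.4% of all tested genes called higher in this difference. It was 5.04 ± 0.66 for Acacb (adjusted p = 9.3e-06), 4.92 ± 0.78 for Elovl3, 4.81 ± 0.57 for Thrsp, 3.50 ± 0.55 for Scd1, 2.70 ± 0.32 for Fasn, 2.18 ± 0.46 for Elovl5, 2.13 ± 0.32 for Elovl6 and 0.68 ± 0.22 for Acaca (adjusted p = 0.022). Leaving out 1 library moved the Elovl3 difference between 3.60 and 5.58 and that of Acacb between 4.70 and 5.39, so their order is not settled. The Acaca call was lost without ApoYap Dox 3, Lats1/2 KO 1 or Lats1/2 KO 3 (highest adjusted p = 0.083). Acly differed by 0.46 ± 0.38 (adjusted p = 0.39) and Srebf1 by -0.06 ± 0.59 (adjusted p = 0.95), intervals that leave room for differences of either sign. Genotype, agent and route differ between the 2 models at once and cannot be told apart.

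Doxycycline and the virus without the transgene or the floxed alleles were followed in BL/6 mice. In BL/6 Dox against BL/6 ctrl, 0 of the 10 genes passed by edgeR, DESeq2 or limma voom, beside 0.123% of all tested genes by edgeR, and 2 had an unadjusted p under 0.05. Fasn had 201.6, 310.6, 295.9 and 173.8 CPM in BL/6 Dox, all below the 428.1, 355.7, 386.8 and 350.1 CPM in BL/6 ctrl (log2 -0.63 ± 0.21, adjusted p = 0.23). Thrsp had 236.2, 313.2, 370.2 and 202.2 CPM in BL/6 Dox, against 520.6, 653.0, 424.0 and 301.8 CPM in BL/6 ctrl, and these overlapped (log2 -0.76 ± 0.35, adjusted p = 0.39). For Srebf1, BL/6 Dox 2 stood apart at 12.3 CPM, against 51.3 to 60.2 CPM in the other BL/6 Dox libraries and 58.6 to 82.2 CPM in BL/6 ctrl. Arntl, a core clock gene, was at 1.67 to 4.37 CPM in BL/6 Dox and 7.89 to 9.19 in BL/6 ctrl (log2 -1.57 ± 0.25, adjusted p = 0.0054), and Sik1, a cAMP-responsive kinase gene, at 2.86 to 4.37 CPM in BL/6 Dox and 8.12 to 11.3 in BL/6 ctrl (log2 -1.48 ± 0.28, adjusted p = 0.022). The time of day of sampling is not given in the sources used here, and its part in these values was not tested.

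In BL/6 AAV-Cre against BL/6 ctrl, 0 of the 10 passed by the same 3 tools, beside 0.301% of all tested genes by edgeR, and 1 had an unadjusted p under 0.05. This was Elovl5, with 241.7, 245.4 and 308.6 CPM in BL/6 AAV-Cre, against 560.7, 277.4, 407.2 and 486.4 CPM in BL/6 ctrl (log2 -0.71 ± 0.33, adjusted p = 0.36). The other 9 had log2 fold changes between -0.43 and 0.07. BL/6 AAV-Cre was sampled at 24 hours and Lats1/2 KO at 1 week, so the virus was not followed for the same time in both.

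Taking the doxycycline effect in BL/6 from that in ApoYap left 9 of the 10 genes lower, beside 27.4% of all tested genes called lower. These differences ran from -1.21 for Acaca to -7.84 for Elovl3, and Srebf1 did not pass (-0.73 ± 0.57, adjusted p = 0.29). Taking the virus effect in BL/6 from the knockout effect left 3 lower, Elovl3 (-3.03 ± 0.67, adjusted p = 0.0032), Thrsp (-2.79 ± 0.54, adjusted p = 0.0010) and Fasn (-1.54 ± 0.32, adjusted p = 0.0013), beside 11.4% of all tested genes called lower. The count was 6 without Lats1/2 flox ctrl 3 or Lats1/2 KO 3, and 5 without Lats1/2 flox ctrl 2 or with voom. The remaining 7 were all below 0, from -0.46 for Acaca to -1.39 for Scd1, with adjusted p from 0.064 to 0.30.

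Untreated mice of the 3 strains were compared as well. ApoYap ctrl against BL/6 ctrl gave 0 of 10 calls, beside 0.439% of all tested genes, and 3 genes with an unadjusted p under 0.05, all higher in every ApoYap ctrl library: Fasn (log2 0.55 ± 0.21, adjusted p = 0.48), Acaca (0.44 ± 0.15, adjusted p = 0.32) and Elovl6 (0.49 ± 0.21, adjusted p = 0.55). With only these groups in the fit, 3 of the 10 were called higher, beside 70 of 10569 tested genes. Lats1/2 flox ctrl against BL/6 ctrl gave 0 of 10, beside 4.12% of all tested genes, and 1 with an unadjusted p under 0.05, Scd1 (0.84 ± 0.35, adjusted p = 0.20). BL/6 ctrl libraries held Scd1 at 3530 ± 1430 CPM (SD, n = 4), far above the others, then Thrsp at 474.9 ± 149, Elovl5 at 432.9 ± 121, Fasn at 380.2 ± 35.8, Elovl3 at 294.5 ± 41.0 and Acly at 255.6 ± 40.3 CPM. Elovl6 at 97.2 ± 11.3, Srebf1 at 66.2 ± 10.8, Acacb at 54.3 ± 10.7 and Acaca at 31.9 ± 3.25 CPM followed. A library prepared from 3′ ends gives about 1 tag per transcript, so these levels are not divided by length. Of neighbours in this order, Thrsp and Elovl5, and Elovl3 and Acly, lay within each other's SD.

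The scaling of the libraries shifts all genes of a comparison by about the same amount, and so can end the calls of genes with a small fall. With total counts in place of TMM, the median of all tested genes moved up by 0.92 for Yap induction and 0.47 for the knockout on the log2 scale, and higher calls made up 84.0% and 91.0% of all calls, against 52.2% and 54.2% with TMM. On that scale 8 of the 10 genes were lower with YAP induced, where 10251 of 12970 tested genes were called, 8613 of them higher. In the knockout 6 were lower, where 6353 tested genes were called, 5781 of them higher. A scaling to the summed counts of the 13 hepatocyte markers, chosen after seeing the data, moved the median by 1.36 and 0.71. With TMM, all 13 markers were themselves called lower, from -0.88 to -3.73 with YAP induced and from -0.46 to -1.64 in the knockout. Their sum gives most weight to the most abundant markers and is not a fixed measure of hepatocyte content. This scaling left 7 of the 10 genes lower with YAP induced, from -1.56 for Elovl6 to -6.68 for Elovl3. Of all 12970 tested genes, 11007 were called on this scale with YAP induced (9985 higher) and 7947 in the knockout (7690 higher). Acly (-0.29, adjusted p = 0.38), Acaca (0.25, adjusted p = 0.21) and Srebf1 (0.08, adjusted p = 0.85) did not pass on this scale, and their direction there was not the same for all 3. In the knockout Elovl3 (-2.38, adjusted p = 0.00075), Thrsp (-2.05, adjusted p = 0.00030) and Fasn (-0.83, adjusted p = 0.0057) passed on this scale.

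**Figure D4:**
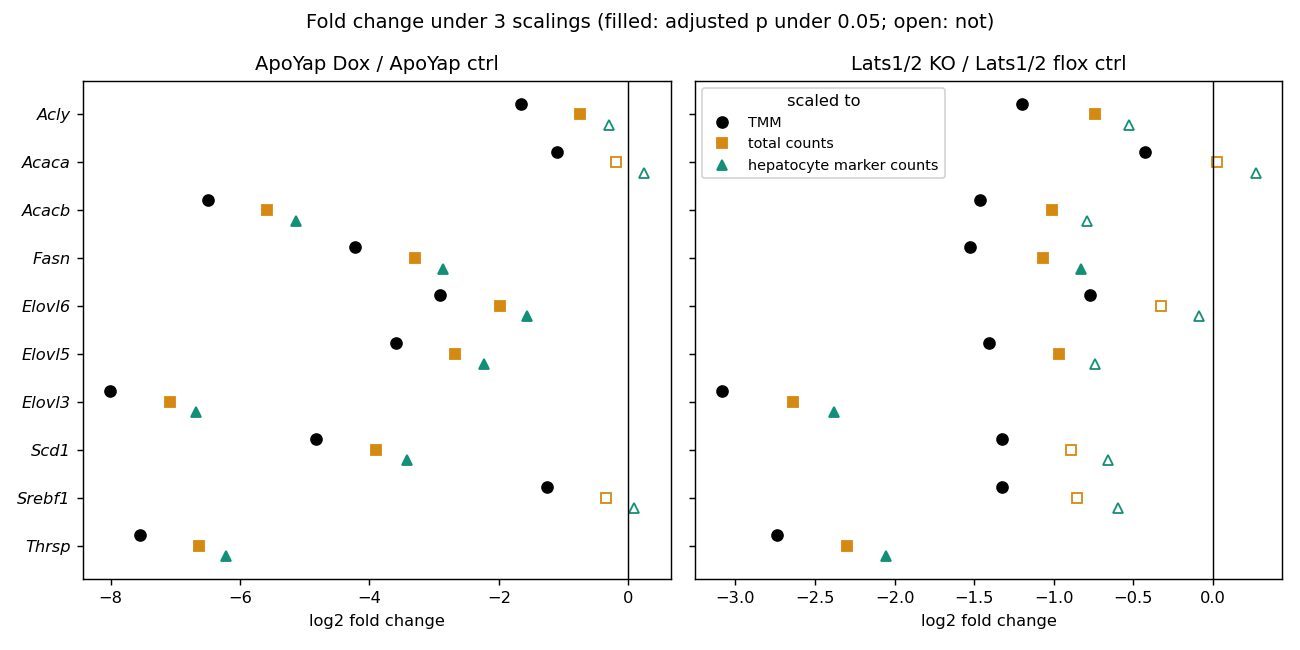
Log2 fold change of each gene in ApoYap Dox over ApoYap ctrl (left) and Lats1/2 KO over Lats1/2 flox ctrl (right) under 3 scalings of the counts, with filled marks for an adjusted p under 0.05. With YAP induced Acacb runs from -6.50 with TMM to -5.14 with hepatocyte marker counts, and Acaca from -1.11 to 0.25.

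The shape of each gene's level over the 7 groups was compared between genes. The root mean square difference between group means of log2 CPM, each centred on the gene's own mean, was smallest between Acly and Srebf1 (0.245), Acaca and Srebf1 (0.364) and Acaca and Acly (0.386), and next between Fasn and Elovl5 (0.420). It was largest between Acaca and Elovl3 (2.67). Among 8153 other genes with an average of at least 2 on the log2 CPM scale, Hacl1, a peroxisomal lyase of fatty acid breakdown, was the most like Fasn (0.234), followed by Cldn14 (0.266) and Tm7sf2 (0.267), a sterol reductase. For Scd1 these were Slc17a3 (0.282), Hao1 (0.283) and Car14 (0.291). For Elovl3 they were Mup16 (0.352), Cyp2c29 (0.396) and Mup11 (0.402), members of gene families whose near-identical copies make their counts uncertain. For Srebf1 they were Oplah (0.088), Lbhd1 (0.134) and Slc20a2 (0.141).

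Elovl3 is higher in male than in female mouse liver, and so its level was set beside other male-biased genes. Of 11 such genes, 9 were called lower and 0 higher with YAP induced (median log2 -3.24), beside 32.0% of all tested genes called lower. Among the lower ones were Hsd3b5, a steroid dehydrogenase gene (-8.71 ± 0.70), and the transporter gene Slco1a1 (-5.39 ± 0.26). Cyp4a12b was lower too (-7.07 ± 0.41, uncertain because of the similar gene Cyp4a12a). In the knockout 7 were lower and 1, Selenbp2 (named after its value was seen), was higher (1.10), with a median of -0.80. Over all tested genes 17.4% were called lower there. The 11 summed to 3764 to 5857 CPM in Lats1/2 KO and 4507 to 6438 in Lats1/2 flox ctrl, which overlap. In ApoYap ctrl, without induction, they summed to 2956 to 4871 CPM, against 6086 to 8258 in BL/6 ctrl, and 1 was called lower. On the hepatocyte marker scale 8 were lower and 1 higher with YAP induced, and 2 lower and 1 higher in the knockout. Over all tested genes on that scale, 9985 of 11007 calls were higher with YAP induced and 7690 of 7947 in the knockout. All 25 libraries carried the same pattern of sex chromosome RNA, with Xist at 0 to 5 counts and Ddx3y at 69.5 to 111 CPM.

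Around the core pathway, 8 of 9 lists had more lower than higher calls with YAP induced on the TMM scale, and the count depended on the scaling. Over all tested genes 32.0% were lower and 35.0% higher in ApoYap Dox, and 17.4% lower and 20.6% higher in Lats1/2 KO, and a list's count is read against these shares. On the hepatocyte marker scale 11007 of 12970 tested genes were called in ApoYap Dox, 9985 of them higher. In Lats1/2 KO 7947 were called on that scale, 7690 of them higher. List counts on that scale are read against these. Of 13 tested genes that supply carbon and NADPH, 9 were lower and 2 higher with YAP induced (median -1.47), and 8 lower and 1 higher in the knockout (median -0.73). Scaled to hepatocyte markers, 6 were lower and 4 higher with YAP induced, and 3 lower and 4 higher in the knockout. The citrate carrier Slc25a1 changed by -2.06 ± 0.12 in ApoYap Dox and -0.73 ± 0.12 in Lats1/2 KO, and the dicarboxylate carrier Slc25a10 by -2.00 ± 0.17 in ApoYap Dox and -1.04 ± 0.16 in Lats1/2 KO. The genes that rose, named after their values were seen, were G6pdx (2.62) and Pgd (0.78) in ApoYap Dox, and Pgd (0.60) in Lats1/2 KO. Tkt (0.24, adjusted p = 0.20) and Taldo1 (-0.03, adjusted p = 0.83), which like them act in the pentose phosphate pathway, did not pass in ApoYap Dox. The Lats1/2 KO calls of Slc25a1 and Slc25a10 were lost on the hepatocyte marker scale (adjusted p = 0.86 for Slc25a1 and 0.13 for Slc25a10). Of 8 tested elongases and elongation cycle enzymes outside the 10, 6 were lower with YAP induced and 4 in the knockout, including Elovl2, a polyunsaturated chain elongase (-2.88 ± 0.21 in ApoYap Dox and -1.30 ± 0.20 in Lats1/2 KO), Hacd3 and Hsd17b12. On the hepatocyte marker scale 2 were lower and 2 higher with YAP induced, and 1 lower and 3 higher in the knockout. Hacd4 (named after its values were seen) rose in both, at 32.8 to 47.7 CPM in ApoYap Dox against 0.415 to 1.10 in ApoYap ctrl, and 2.08 to 5.54 CPM in Lats1/2 KO against 0.476 to 2.08 in Lats1/2 flox ctrl.

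Desaturases other than Scd1 divided, with 3 of 6 lower and 3 higher in ApoYap Dox and 2 lower and 3 higher in Lats1/2 KO. Fads1 and Fads2, the desaturases of polyunsaturated fatty acid synthesis, changed by -2.06 ± 0.15 and -3.57 ± 0.24 in ApoYap Dox, and Fads2 by -1.81 ± 0.22 in Lats1/2 KO. Scd2, the isoform that predominates outside the adult liver, was at 17.2 to 24.6 CPM in ApoYap Dox against 0.848 to 1.50 in ApoYap ctrl, and at 6.58 to 11.2 CPM in Lats1/2 KO against 1.38 to 1.87 in Lats1/2 flox ctrl (log2 2.40 ± 0.36). Fads3 was at 36.9 to 54.8 CPM in ApoYap Dox against 0.922 to 2.19 in ApoYap ctrl (log2 4.70 ± 0.31), and at 8.91 to 20.1 CPM in Lats1/2 KO against 0.681 to 1.48 in Lats1/2 flox ctrl (log2 3.76 ± 0.33). Degs1 (named after its values were seen) was at 93.5 to 101 CPM in ApoYap Dox against 63.5 to 71.4 in ApoYap ctrl. In Lats1/2 KO it was at 93.1 to 99.8 CPM, against 62.2 to 67.8 in Lats1/2 flox ctrl. Macrophage and endothelial markers were higher in the same groups, and their part in the rise of Scd2, Fads3, Degs1 and Hacd4 was not tested. Within Lats1/2 KO, Scd2, Degs1 and Hacd4 were highest in Lats1/2 KO 2, as those markers were, and Fads3 in Lats1/2 KO 1.

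Genes of acyl-CoA activation and glycerolipid synthesis were lower for 13 of 15 and higher for 1, Agpat1 (2.25, named after its value was seen), in ApoYap Dox, and lower for 5 of 15 in Lats1/2 KO. On the hepatocyte marker scale 2 were lower and 5 higher in ApoYap Dox, and 2 lower and 4 higher in Lats1/2 KO. Acsl1, the main hepatic long-chain acyl-CoA synthetase, changed by -2.80 ± 0.21 in ApoYap Dox and -1.37 ± 0.19 in Lats1/2 KO, and Dgat2, which forms triglyceride, by -1.22 ± 0.20 in Lats1/2 KO. Among 21 regulators of lipogenesis, 13 were lower and 3 higher in ApoYap Dox, and 11 lower and 1 higher in Lats1/2 KO. On the hepatocyte marker scale, where most of all tested genes were called higher, 4 were lower and 12 higher in ApoYap Dox. In Lats1/2 KO 3 were lower and 7 higher on that scale. Genes that hold or escort the SREBP precursor were among the lower ones. Insig2, its anchor in the endoplasmic reticulum, changed by -3.83 ± 0.19 in ApoYap Dox and -1.38 ± 0.17 in Lats1/2 KO, and Scap, its escort, by -2.09 ± 0.15 in ApoYap Dox and -1.16 ± 0.14 in Lats1/2 KO. The transcription factor genes Mlx (-1.43 ± 0.14 in ApoYap Dox, but -0.078 and adjusted p = 0.67 on the hepatocyte marker scale) and Usf1 (-1.48 ± 0.22 in Lats1/2 KO) were lower too. Of 10 genes of mitochondrial fatty acid synthesis, a separate pathway that feeds lipoate formation, 9 were lower in ApoYap Dox (median -1.20) and 7 in Lats1/2 KO (median -0.47), and 0 in both on the hepatocyte marker scale. Lias, Mecr and Ndufab1, at -0.97, -1.19 and -1.14 in ApoYap Dox, turned to 0.38, 0.16 and 0.20 when scaled to hepatocyte markers.

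Of 8 genes of malonyl-CoA breakdown and lipid droplets, 5 were lower and 1 higher in ApoYap Dox, and 3 lower and 1 higher in Lats1/2 KO. On the hepatocyte marker scale 2 were lower and 3 higher in ApoYap Dox, and 1 lower and 3 higher in Lats1/2 KO. The higher one in both was Hilpda, a lipid droplet protein gene induced by hypoxia (2.78 ± 0.31 in ApoYap Dox and 1.44 ± 0.32 in Lats1/2 KO). Mlycd, which breaks down malonyl-CoA, changed by -1.77 ± 0.18 in ApoYap Dox and -0.66 ± 0.18 in Lats1/2 KO, where it was 0.057 on the hepatocyte marker scale. Fasting and insulin response genes did not move as 1 block, with 7 of 12 lower and 1 higher in ApoYap Dox and 2 lower in Lats1/2 KO, against 2 lower and 6 higher in ApoYap Dox and 4 higher in Lats1/2 KO on the hepatocyte marker scale. The lower share in Lats1/2 KO is near that over all tested genes. G6pc and Pck1, gluconeogenic genes that insulin lowers, changed by -6.14 ± 0.53 and -2.44 ± 0.35 in ApoYap Dox, while Fgf21, a liver hormone gene, changed by 3.41 ± 0.62. Of 13 clock genes, 5 were lower and 3 higher in ApoYap Dox, and 3 lower in Lats1/2 KO. The lower shares are near those over all tested genes. Among them was Cry1, lower in both (-2.88 ± 0.33 in ApoYap Dox and -1.12 ± 0.29 in Lats1/2 KO). On the hepatocyte marker scale 2 clock genes were lower and 9 higher in ApoYap Dox, and 1 lower and 4 higher in Lats1/2 KO, where Cry1 did not pass (adjusted p = 0.24).

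**Figure D5:**
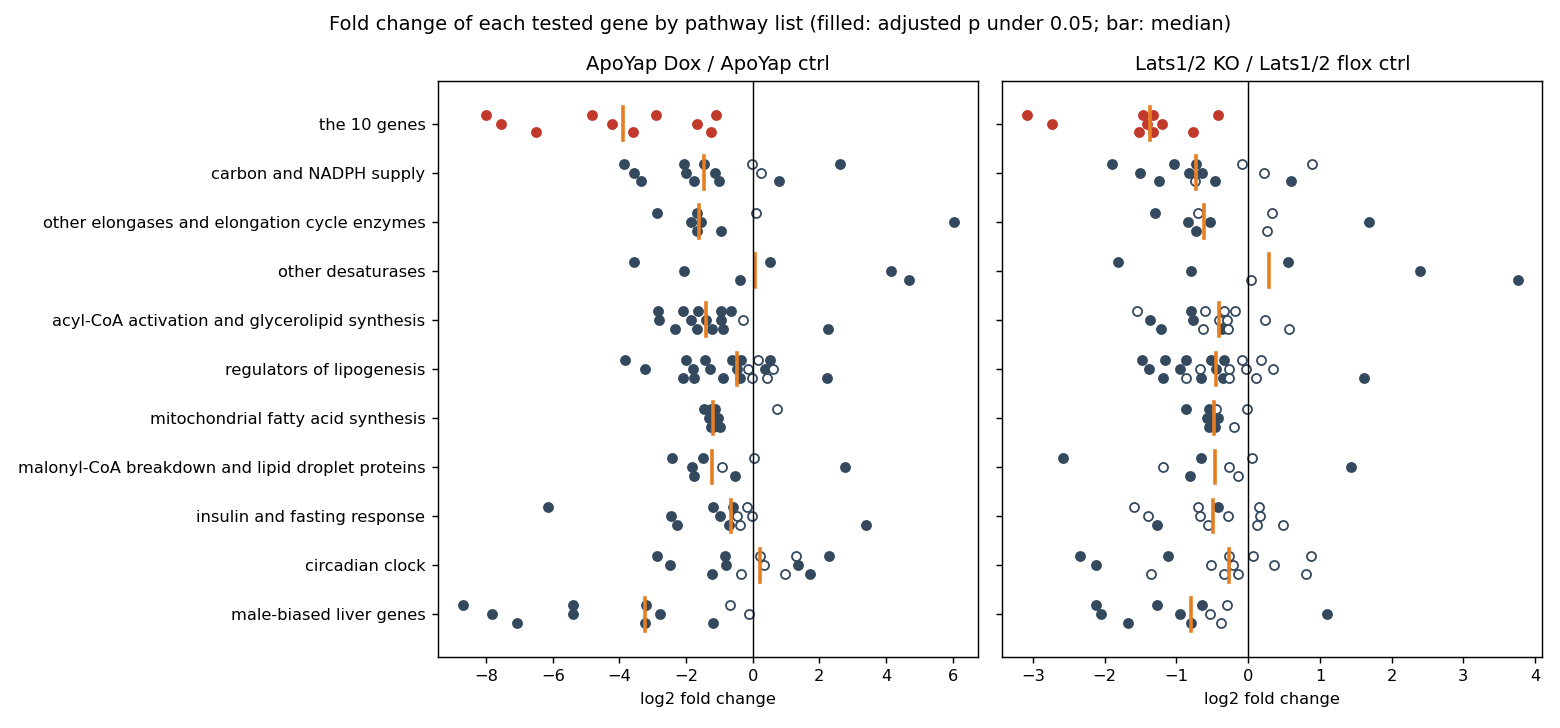
Log2 fold change of each tested gene of 10 lists and of the 10 lipogenic genes, for ApoYap Dox over ApoYap ctrl (left) and Lats1/2 KO over Lats1/2 flox ctrl (right), on axes of different range. Filled points have an adjusted p under 0.05 and bars are medians, which lie at -3.91 on the left and -1.37 on the right for the 10 genes, and at 0.08 and 0.30 for the other desaturases.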

How the data were processed

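The authors deposited a table of raw counts for 37117 gene symbols in 25 libraries. The libraries were made with QuantSeq 3′ mRNA-Seq FWD, per the labels' protocols, so a count depends on the 3′ end and not on gene length. FastQC, cutadapt and STAR 2.6.1d were used with mm10 (GRCm38), according to the submitters' processing notes. The sources used here name no counting tool, annotation or strand setting. Table columns were matched to samples by name. No library pair differed by as little as sampling noise (lowest chi-square per degree of freedom 7.13).

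The fit used edgeR 4.0.16 in R 4.3.3: filterByExpr by group (minimum count 10, minimum total 15), TMM scaling, and a robust quasi-likelihood model with 1 mean per group over all 25 libraries. Benjamini-Hochberg adjustment ran over 12970 genes with a threshold of 0.05. Fold changes carry a prior count of 0.125, and each SE comes from the log2 fold change and its F statistic. DESeq2 1.42.0, limma 3.58.1 voom, other scalings, filters and thresholds, a replicate block and leaving out libraries were tried, and the scripts were tested on simulated data. Promoter windows came from RefSeq (GRCm38.p6) and coordinates from GENCODE M21.

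The 10 genes, the pathway and marker lists and the motifs were chosen with earlier results of these data known. Named from each pathway list are up to 3 genes with the smallest p for Yap induction and up to 3 for the knockout, and for Fasn, Scd1, Elovl3 and Srebf1 the 3 genes of most similar profile. 1 gene that the rule names is not reported here. Lists are described by counts and medians with no test of the list.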

Additional observations from a re-analysis of the deposited data

Results flagged for a closer look

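In 40 sets of 4 libraries (10 genes in each of the 4 groups of that size), 3 held a library far from the others by Dixon's test, where chance gives about 1 in 20. Scd1 was at 12520 CPM in Lats1/2 flox ctrl 1, against 4137 to 4344 CPM in the other 3. Elovl3 was at 355.6 CPM in BL/6 ctrl 3, against 267.6 to 280.4 CPM in the others. Elovl6 was at 116.3 CPM in BL/6 Dox 3, against 70.8 to 78.5 CPM in the others.

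Doxycycline had a different effect in ApoYap and BL/6 mice for 9 genes, by edgeR's test of the difference of the 2 log2 fold changes (ApoYap less BL/6, adjusted p under 0.05). All 9 were called lower, beside 27.4% of all tested genes. The difference was -7.84 for Elovl3, -6.79 for Thrsp, -6.30 for Acacb, -4.69 for Scd1, -3.62 for Elovl5, -3.59 for Fasn, -2.70 for Elovl6, -1.43 for Acly and -1.21 for Acaca. The virus had a different effect in floxed and BL/6 mice for 3 genes (floxed less BL/6): -3.03 for Elovl3, -2.79 for Thrsp and -1.54 for Fasn.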

How the results depend on the processing

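Counts of genes called among the 10 stayed within 1.5 times the reported count except as follows. For the knockout, 6 passed with total counts alone, 3 with scaling to hepatocyte markers (chosen after seeing the data) and 3 with only the compared groups in the fit, against 10. For the knockout net of AAV-Cre, 5 passed with limma voom, against 3. For untreated ApoYap against BL/6, 3 passed with only the compared groups, against 0. Leaving out each library in turn gave 9 to 10 for Yap induction, 5 to 10 for the knockout, 3 to 6 for the knockout net of AAV-Cre, 9 for Yap induction net of doxycycline, 7 to 9 for the knockout less induction, and 0 to 1 for untreated Lats1/2 flox against BL/6. With a replicate block the counts were 10 for Yap induction, 10 for the knockout, 9 and 3 for the net comparisons and 8 for the knockout less induction, so the block changed no count. Over all genes, doxycycline in BL/6 gave 16 calls with edgeR, 123 with DESeq2 and 89 with voom, and AAV-Cre 39 with edgeR, 196 with DESeq2 and 518 with voom. Among the pathway lists, 106 counts of higher or lower calls under other settings, and 31 without 1 library, lay more than 1.5 times from the reported count, with more of them under each of the 2 scalings named above than under any other setting. Correlations of deviations between same-numbered libraries ran from -0.24 to 0.213, and the numbers were not taken as pairs.

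Signs turned as follows, on the log2 scale, and the cause was not tested beyond the shift of the median that each scaling brings. For Yap induction, Clock was 0.078 with total counts alone, and with hepatocyte marker scaling Acaca was 0.25, Srebf1 0.082, Lias 0.38, Mecr 0.16, Ndufab1 0.20, Clock 0.51 and Arntl 0.15. For the knockout with total counts alone, Acaca was 0.027, Lias 0.008 and Akt2 0.043, and with hepatocyte marker scaling Acaca was 0.27, Lias 0.25, Hsd17b10 0.17, Mlycd 0.057 and Akt2 0.28. Values that were not called also turned. For doxycycline in BL/6 these were Acaca at -0.01 and Scd1 at 0.035 with voom, Elovl5 at -0.006 with only the compared groups, and Acaca at -0.072 and Scd1 at 0.15 without BL/6 Dox 1 and 2. For AAV-Cre in BL/6 they were Elovl6 at 0.01 with voom, and Fasn at -0.024, Acaca at -0.014 and Thrsp at -0.022 with the replicate block. With total counts alone Srebf1 was 0.19 for Yap induction net of doxycycline and Acly -0.002 for the knockout less induction. For untreated Lats1/2 flox against BL/6, Acacb was -0.001 with DESeq2, -0.46 with voom, 0 with RLE scaling, -0.033 with total counts alone and -0.052 with the replicate block.

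Leaving out 1 library turned signs for the following genes, with these ranges. For doxycycline in BL/6, Scd1 ran from -0.39 to 0.19, Elovl5 from -0.14 to 0.18 and Acaca from -0.022 to 0.20. For AAV-Cre in BL/6, Acacb ran from -0.44 to 0.043, Fasn from -0.15 to 0.12, Scd1 from -0.078 to 0.38, Elovl6 from -0.13 to 0.065, Elovl3 from -0.17 to 0.042, Acaca from -0.04 to 0.086 and Thrsp from -0.14 to 0.24. Srebf1 ran from -0.32 to 0.27 for the knockout less induction and from -0.26 to 0.012 for untreated ApoYap against BL/6. For untreated Lats1/2 flox against BL/6, Acacb ran from -0.33 to 0.28, Elovl5 from -0.64 to 0.036, Fasn from -0.25 to 0.092, Acly from -0.64 to 0.042 and Srebf1 from -0.55 to 0.043. Depth limits most the values of Acacb, at 15 to 24 counts per library, and Elovl3, at 6 to 37, in ApoYap Dox.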
